A study of Mus musculus with 3 samples.

Results

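Hedgehog signalling in the mouse larynx was followed through 9 genes, namely the ligands *Shh*, *Ihh* and *Dhh*, the receptor *Ptch1*, the signal transducer *Smo*, the transcription factors *Gli1*, *Gli2* and *Gli3*, and the ligand-binding inhibitor *Hhip*. Members were the features whose gene symbol equalled one of these names, 9 of 33696 features, and all 9 had counts. Hedgehog ligands are secreted proteins that bind *Ptch1* on receiving cells. Without ligand *Ptch1* holds *Smo* silent, and with ligand *Smo* is released and shifts the Gli factors from repression to activation. *Gli1*, *Ptch1* and *Hhip* are themselves switched on by the pathway in many tissues, so their RNA is commonly read as a response, and in the developing airway an epithelial ligand acts on the mesenchyme around it.

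The data were single-cell RNA counts from 3 libraries of tdTomato-positive cells sorted from Lrig1CreERT2/+; ROSA26CAG-LSL-tdTomato/+ mice 1 day after tamoxifen-induced recombination. In these mice the *Lrig1* locus drives a tamoxifen-dependent Cre, which switches on the tdTomato reporter in cells that express *Lrig1* at that time. Each library held 10 pooled larynges, 5 from males and 5 from females, and every library had the same genotype and treatment. WT and ROSA26CAG-LSL-tdTomato/+ mice served to set the sorting gates and have no library here, and neither tdTomato nor Cre is a feature of the files, so the sort could not be checked against the reporter.

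After limits on genes, UMIs and mitochondrial share and removal of likely doublets, 13222, 7201 and 24119 cells remained in libraries 1, 2 and 3, with a median of 10664 to 14166 unique molecules (UMIs) each. A cell was put in a class when it held at least 3 of 6 fixed markers of that class and these were at least 3 times as many as the markers of any other panel. The epithelial class had 6576, 4829 and 14967 cells, the fibroblast class 2061, 394 and 1560, the muscle satellite class 449, 434 and 671, the endothelial class 463, 28 and 43, and the immune class 132, 45 and 36. All 6 markers of each of these classes were detected in it. This does not set the classes apart, since all 6 fibroblast and all 6 satellite markers were also detected among epithelial cells. Median UMIs per cell were 15023 to 18556 in epithelial cells, 9607 to 11098 in fibroblasts, 5607 to 7739.5 in satellite cells, 4813 to 7436 in endothelial cells and 7581 to 12743.5 in immune cells. Mural cells (50, 8 and 28) fell below the minimum of 20 per library, and chondrocytes (18, 0 and 1) and glia (3, 0 and 4) were rarer still. A *Lrig1* UMI was found in 40.9%, 57.1% and 50.6% of cells. Cells that held markers of several panels made up 6.99%, 5.50% and 16.1% of the libraries and entered no class. Levels below are CPM, the UMIs of a gene scaled to the sum of all UMIs of a class in a library, and shares are percentages of cells with at least 1 UMI. Intervals and floors cover counting error only.

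*Shh*, which encodes Sonic hedgehog (GRCm39 chr5:28661813-28672254, minus strand, 3 exons in the canonical transcript), had most of its UMIs in epithelial cells. In all, 572 *Shh* UMIs were found in 125 of 44542 cells, of which 98 were epithelial, 26 were in no class and 1 was a fibroblast. The epithelial level was 2.09, 0.894 and 1.02 CPM in libraries 1, 2 and 3 (1.33 ± 0.66, SD, n = 3). Library 1 was the highest, and the other two lay close together. The share of epithelial cells with a *Shh* UMI was 0.395% (95% Wilson interval 0.270 to 0.579), 0.248% (0.142 to 0.434) and 0.401% (0.312 to 0.516). With each cell thinned to 5000 UMIs and shallower cells left out, the mean share was 0.184%, and at 2000 UMIs it was 0.0886%. Fibroblasts held 1 *Shh* UMI in library 1 and none in the others. Cells in no class held 1, 0 and 26 *Shh* UMIs, a level of 0.0497, 0 and 0.618 CPM, and the share with one was 0.0288%, 0% and 0.367%, so that in library 3 it was close to the epithelial share. No *Shh* UMI was found in 449, 434 and 671 satellite cells, which allows shares of up to 0.668%, 0.691% and 0.447%, where the limit for a share of 0 is here and below 3 counts of the total and not a Wilson bound. None was found in endothelial cells, with upper limits of 0.648%, 10.7% and 6.98%, or in immune cells, with upper limits of 2.27%, 6.67% and 8.33%. Each of these limits is above the epithelial share of its library, so none of them can show a share lower than the epithelial one. The same holds for the 394 fibroblasts of library 2, with a limit of 0.761%.

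Most *Shh* RNA lay in very few cells. A group of 17 cells with 5 to 78 *Shh* UMIs, 7, 1 and 9 by library, held 446 of the 572 UMIs, or 78.0%. The other 108 positive cells held 1 to 3 UMIs each, 91 of them a single one, and no cell held 4. The limit of 5 UMIs was placed in that gap after the counts per cell had been seen, so the group is described here and not tested. All 17 cells were epithelial. Without them the epithelial level was 0.236, 0.142 and 0.255 CPM and the share 0.289%, 0.228% and 0.341%.

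**Figure D1:**
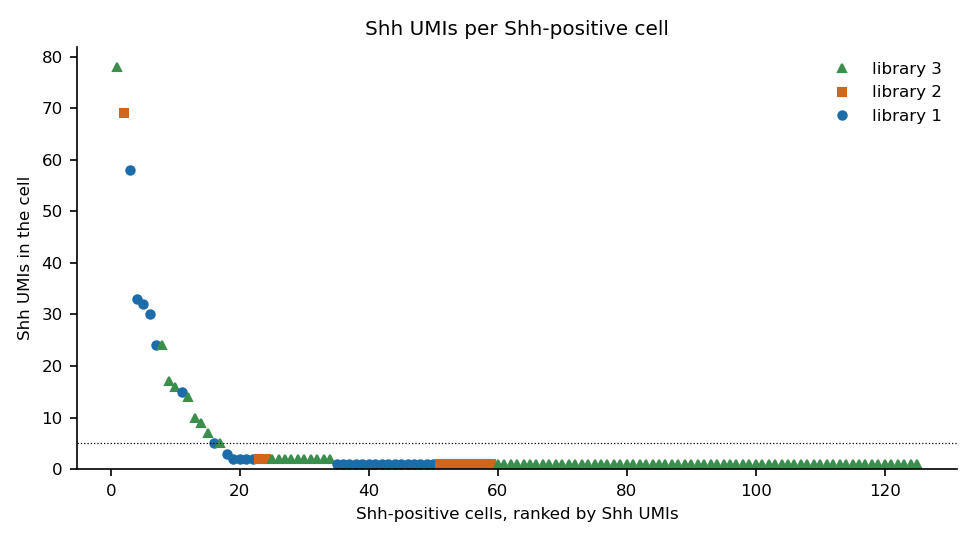
Cells by their number of *Shh* UMIs, for each library, with the dotted line at 5 UMIs. Most positive cells hold 1 to 3 UMIs, and 17 cells lie at 5 to 78.

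The 17 cells shared more than *Shh*. Their levels are set beside those of the 26355 other epithelial cells. Their median depth was 26524 UMIs, above that of the class, and shares of cells with a UMI rise with depth. *Lef1*, a transcription factor of the Wnt pathway, stood at 411 CPM in them and 1.68 CPM in the others, with a UMI in 16 of 17 cells against 0.774%. *Bmp2*, a secreted BMP ligand, was at 659 CPM against 1.95, also in 16 of 17 cells. *Notum*, a secreted Wnt inhibitor, was at 442 CPM against 1.95, and *Cadps*, a factor of vesicle release, at 1211 CPM against 4.58. The simple-epithelium keratins *Krt8* and *Krt18* were at 683 and 654 CPM against 159 and 193, and the basal genes *Krt5* and *Trp63* at 351 and 241 CPM against 1346 and 657. The neuroendocrine gene *Chga* and the tuft cell gene *Trpm5* had no UMI in them, while the tuft cell genes *Avil* and *Pou2f3* were at 158 and 9.55 CPM against 3.03 and 3.69, in 10 and 3 of the 17 cells. *Prox1*, a transcription factor, was at 256 CPM against 2.12, in 5 of the 17. *Ptch1* was found in 9 of the 17 cells, at 35.8 CPM against 28.7 CPM in the other epithelial cells, and *Gli1* in 1. A *Lrig1* UMI was found in 8 of them, 47.1%, against 69.3% of epithelial cells with at least 10000 UMIs. By the epithelial gates described further on, 11 of the 17 were in the remainder that passed no gate, 3 were squamous basal cells, 2 were basal cells with both *Nkx2-1* and *Tmprss11a*, and 1 was suprabasal. No cell type name was given to them.

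The other ligands had fewer counts. *Ihh*, Indian hedgehog (chr1:74984474-74990837, minus strand), had 30 UMIs in 30 cells, never more than 1 in a cell, and 22 of those cells were epithelial. *Dhh*, Desert hedgehog (chr15:98789033-98796439, minus strand), had 74 UMIs in 69 cells. Endothelial cells held 26, 2 and 0 of these, a level of 6.28, 6.17 and 0 CPM, and 4.75%, 7.14% and 0% of endothelial cells had one, where 0 of 43 cells in library 3 allows up to 6.98%. Epithelial cells held 5, 10 and 13 *Dhh* UMIs, a level of 0.0471, 0.109 and 0.0552 CPM, and satellite and immune cells held none. In library 1 the endothelial level had a 95% counting interval of 4.10 to 9.21 CPM, and in libraries 1 and 2 it was above the epithelial one. Neither gene passed the filter on low counts between classes, so neither was tested.

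Among the receptors, transducer and Gli factors, *Ptch1* and *Gli1* were highest in satellite cells, *Hhip* was highest in fibroblasts by a wide margin, and *Gli3* was highest in epithelial cells. Immune cells had the lowest *Ptch1*. Of the 9 members, 6 passed the filter on low counts in the fit across the 5 classes (*Ptch1*, *Smo*, *Gli1*, *Gli2*, *Gli3* and *Hhip*), and all differences below are log2 differences from edgeR's quasi-likelihood test with Benjamini-Hochberg adjustment over 15349 genes. In fibroblasts against epithelial cells 3 of the 6 were higher and 1 lower, where 55.2% of all genes tested passed. In satellite against epithelial cells 4 were higher and 1 lower, against 51.3% of all genes. In endothelial against epithelial cells 3 were lower and none higher, against 45.1%. In satellite cells against fibroblasts 2 were higher and 2 lower, against 37.6%. The median log2 difference of the 6 members was 1.42 in fibroblasts and 2.33 in satellite cells against epithelial cells, where the medians of all genes were -0.03 and -0.05. It was -1.93 in endothelial cells, with -0.20 over all genes, and 0.15 in satellite cells against fibroblasts, with -0.03. So many genes differ between classes that these counts set no member apart. Nothing in the labels says how the 3 pools differ beyond their animals, and p-values measure the spread between these pools.

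**Figure D2:**
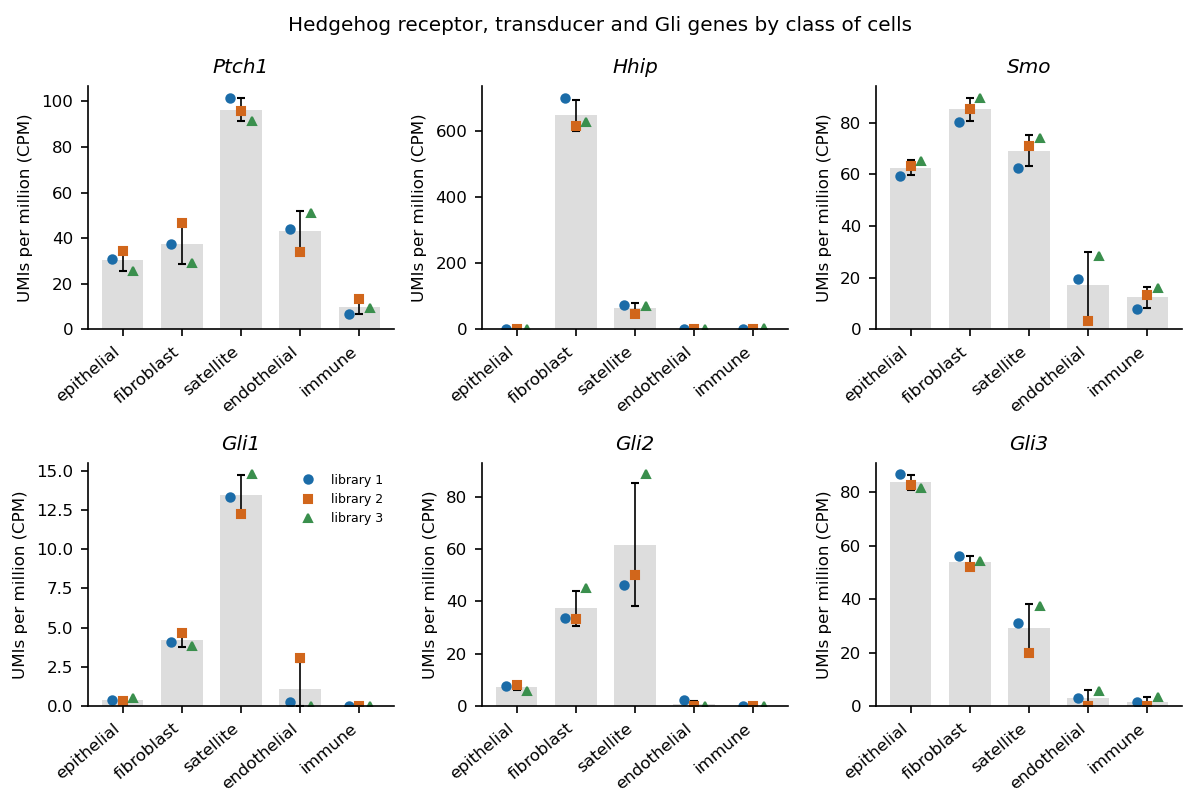
Level of 6 members in CPM in epithelial, fibroblast, satellite, endothelial and immune cells, with bars for the mean, error bars for the SD and points for the 3 libraries. *Hhip* stands at 649 ± 46 in fibroblasts, and *Ptch1* and *Gli1* are highest in satellite cells.

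*Ptch1*, the ligand receptor and a target of the pathway (chr13:63656142-63721412, minus strand, 23 exons), was found in every tested class. Satellite cells had 102, 95.7 and 91.5 CPM (96.3 ± 5.1, SD, n = 3), and epithelial cells had 31.1, 34.5 and 25.4 CPM. Fibroblasts had 37.4, 46.6 and 29.0 CPM, endothelial cells 44.2, 33.9 and 51.1 CPM, and immune cells 6.87, 13.3 and 9.55 CPM. All 3 satellite values lay above every other class, while the fibroblast, endothelial and epithelial ranges overlapped. Satellite cells exceeded epithelial cells by 1.62 (SE 0.18, edgeR adjusted p = 1.96e-06) and fibroblasts by 1.32 (SE 0.185, edgeR adjusted p = 3.76e-05). Fibroblasts and epithelial cells were not told apart, at 0.30 (SE 0.18, edgeR adjusted p = 0.172), though fibroblasts were the higher of the pair within each library. Endothelial cells differed from epithelial cells by 0.46 (edgeR adjusted p = 0.0918), which passed with the library as a block (adjusted p = 0.0387, where 48.6% of genes passed) and without library 2 (0.73, adjusted p = 0.0245). A *Ptch1* UMI was found in 38.8%, 43.5% and 33.4% of satellite cells, and in 40.3%, 34.9% and 29.6% when thinned to 5000 UMIs. The share in immune cells was 7.58%, 11.1% and 5.56%, and 1.72%, 7.14% and 5.00% when thinned.

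The stretch around the start of *Ptch1* is shown because it is the only window among the 9 members with the letters of the consensus for GLI proteins. The motif GACCACCCA was searched for on both strands within 1000 bases to either side of the start of each gene's canonical transcript in GRCm39. It was found at 1.79% of 33185 such windows, and at *Ptch1* among the 9 members. Capitals mark the motif, whose middle base lies 161 bases upstream of the *Ptch1* start. The canonical *Ptch1* transcript starts inside the annotated span of the gene, so this stretch lies within that span. The stretch is chr13:63714239-63714267, written 5′ to 3′ in the direction of the motif, which lies on the plus strand, opposite to the gene.
Ptch1: aaagtagagaGACCACCCAggtaggcaac
A match of letters is not a binding site, and the absence of these letters from the other windows says nothing about GLI binding there.

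*Smo*, the membrane protein that carries the signal into the cell (chr6:29735407-29762532, plus strand, 12 exons), differed little between the 3 largest classes. Epithelial cells had 59.5, 63.3 and 65.2 CPM, fibroblasts 80.4, 85.5 and 89.6 CPM, and satellite cells 62.5, 71.0 and 74.0 CPM. All 3 fibroblast values were above all values of the other two classes. The test gave 0.44 (SE 0.19, edgeR adjusted p = 0.0611) for fibroblasts against epithelial cells, which passed with the library as a block (adjusted p = 0.0262, where 60.9% of genes passed) and in DESeq2 (adjusted p = 1.61e-08). Satellite cells differed from epithelial cells by 0.10 (edgeR adjusted p = 0.712). Endothelial cells had less, at 19.6, 3.08 and 28.4 CPM, a difference of -1.82 from epithelial cells (edgeR adjusted p = 2.74e-05). Immune cells had 7.92, 13.3 and 15.9 CPM, and the endothelial value of library 2 was below them, from 28 cells.

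*Gli1*, the activator that the pathway itself induces (chr10:127165751-127177865, minus strand, 13 exons), was sparse, with 687 UMIs in 573 cells. Satellite cells had the most, at 13.4, 12.2 and 14.8 CPM, followed by fibroblasts at 4.06, 4.68 and 3.84 CPM and epithelial cells at 0.405, 0.316 and 0.501 CPM. The 3 classes did not overlap. Satellite cells exceeded fibroblasts by 1.64 (SE 0.34, edgeR adjusted p = 0.00161) and epithelial cells by 4.97 (SE 0.37, edgeR adjusted p = 8.18e-08), and fibroblasts exceeded epithelial cells by 3.33 (SE 0.35, edgeR adjusted p = 1.90e-06). A *Gli1* UMI was found in 7.80%, 6.91% and 7.00% of satellite cells, 3.64%, 3.30% and 3.33% of fibroblasts and 0.578%, 0.497% and 0.715% of epithelial cells. At 5000 UMIs a cell the satellite shares were 4.52%, 4.76% and 5.17% and the fibroblast shares 1.53%, 1.88% and 1.98%. No *Gli1* UMI was found in immune cells, which allows up to 2.27%, 6.67% and 8.33%, and endothelial cells held 1, 1 and 0.

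*Gli2*, the main activator upstream of *Gli1* (chr1:118761858-118982598, minus strand, 14 exons), was likewise higher in fibroblasts and satellite cells than in epithelial cells. *Gli3*, the main repressor (chr13:15637809-15904611, plus strand, 15 exons), ran the other way. *Gli2* stood at 46.3, 50.04 and 88.8 CPM in satellite cells, 33.8, 33.4 and 45.1 CPM in fibroblasts and 7.76, 7.97 and 5.75 CPM in epithelial cells. It was higher than in epithelial cells by 3.05 in satellite cells (SE 0.26, edgeR adjusted p = 3.13e-07) and by 2.39 in fibroblasts (SE 0.25, edgeR adjusted p = 1.96e-06). All 3 satellite values lay above all 3 fibroblast values. The test without the block did not tell the classes apart in *Gli2*, at 0.66 (edgeR adjusted p = 0.0514, with the library as a block 0.0409, where 43.1% of genes passed), and library 3 was highest in both.

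*Gli3* stood at 86.8, 82.8 and 81.5 CPM in epithelial cells, 56.1, 51.9 and 54.3 CPM in fibroblasts and 30.9, 19.8 and 37.4 CPM in satellite cells, with no overlap. Against epithelial cells it was lower in fibroblasts, at -0.63 (SE 0.19, edgeR adjusted p = 0.01004), and in satellite cells, at -1.57 (SE 0.20, edgeR adjusted p = 7.47e-06). Satellite cells were below fibroblasts at -0.94 (SE 0.20, edgeR adjusted p = 0.00158). Without library 1 the fibroblast difference did not pass (adjusted p = 0.139), nor did that between satellite cells and fibroblasts (0.0635). At 4 markers or more per class the fibroblast difference was -0.27 (adjusted p = 0.313).

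Endothelial cells were low in *Gli3*, and in *Gli2* in library 1. They held 0.242, 3.08 and 0 CPM of *Gli1*, 2.18, 0 and 0 CPM of *Gli2*, and 3.14, 0 and 5.68 CPM of *Gli3*. The *Gli1* values rest on 1, 1 and 0 UMIs, and the one of library 2 was above the epithelial 0.316 CPM. *Gli3* differed from the epithelial level by -4.80 (edgeR adjusted p = 1.65e-08) and *Gli2* by -2.03 (edgeR adjusted p = 0.00559). Without library 1 the *Gli2* difference did not pass (adjusted p = 0.0670), and the 28 and 43 endothelial cells of libraries 2 and 3, with no *Gli2* UMI, allow up to 10.7% and 6.98% of cells with one. In these libraries 3 UMIs would be 9.25 and 8.52 CPM, above the epithelial *Gli2* level, so a 0 there cannot show a lower level. Immune cells held no *Gli2* UMI and 1.58, 0 and 3.18 CPM of *Gli3*.

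**Figure D3:**
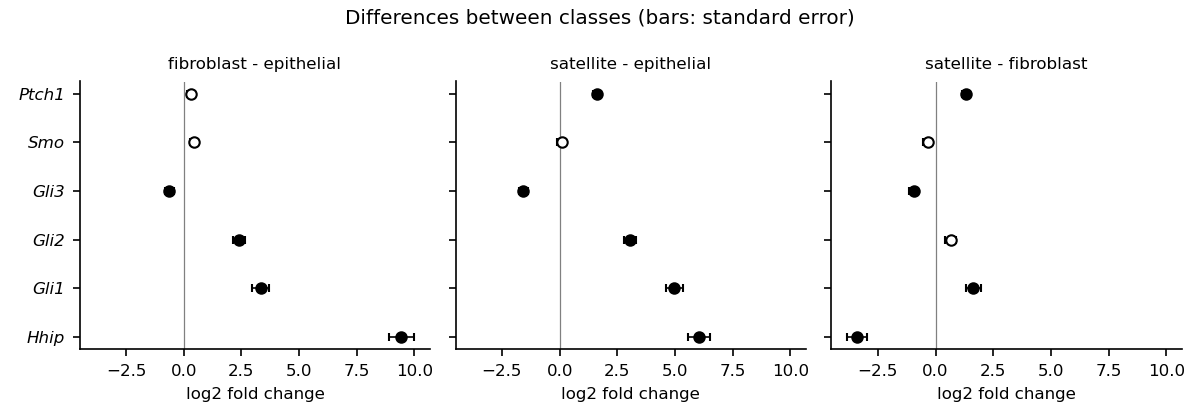
Log2 difference of 6 members with its SE for fibroblasts against epithelial cells, satellite against epithelial cells, and satellite cells against fibroblasts, with filled points for an adjusted p under 0.05. *Hhip* and *Gli1* are higher in fibroblasts and satellite cells than in epithelial cells, and *Gli3* is lower.

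*Hhip*, a membrane protein that binds Hedgehog ligands and dampens the signal (chr8:80692480-80784658, minus strand, 13 exons), was highest in fibroblasts as a class. Its level differed widely among fibroblasts, as given further on. Fibroblasts had 702, 617 and 627 CPM (649 ± 46, SD, n = 3), satellite cells 74.6, 47.7 and 70.2 CPM, and epithelial cells 1.27, 0.174 and 1.29 CPM. The classes did not overlap. Fibroblasts exceeded epithelial cells by 9.44 (SE 0.56, edgeR adjusted p = 1.22e-09) and satellite cells exceeded them by 6.04 (SE 0.49, edgeR adjusted p = 5.14e-08), while satellite cells were below fibroblasts at -3.39 (SE 0.43, edgeR adjusted p = 1.35e-05). A *Hhip* UMI was found in 54.3%, 58.6% and 56.5% of fibroblasts, and in 48.5%, 50.5% and 48.6% when thinned to 5000 UMIs. Satellite shares were 13.6%, 8.29% and 12.1%. Immune cells held 5, 0 and 1 *Hhip* UMIs, a level of 2.64, 0 and 3.18 CPM. The share was 1.92%, 0.331% and 1.88% in epithelial cells and 3.79%, 0% and 2.78% in immune cells, where the shares rest on 6 UMIs. Whether the epithelial UMIs came from those cells themselves was not tested.

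The fibroblast panel was read beside the satellite *Hhip* level. The 6 fibroblast markers summed to 1919, 2452 and 378 CPM in satellite cells, beside 3022, 2741 and 4059 CPM for the 6 satellite markers. Per 1000 panel UMIs, fibroblasts held 44.0, 49.5 and 44.8 *Hhip* UMIs and satellite cells 38.9, 19.5 and 186. Library 3 had the least panel RNA in satellite cells and far more *Hhip* for it, and libraries 1 and 2 were below their fibroblasts. *Hhip* was also read in satellite cells with no UMI of any fibroblast marker. Of the 5, 10 and 9 such cells that had a *Gli1* UMI, 0, 4 and 5 cells held 0, 28 and 31 *Hhip* UMIs. The *Hhip* level over these 5, 10 and 9 cells was 0, 363 and 648 CPM. Of the 113, 118 and 227 that had no *Gli1* UMI, 11, 4 and 13 cells held 28, 10 and 45 *Hhip* UMIs, a level of 48.4, 13.4 and 41.1 CPM. The part of fibroblast RNA in the satellite *Hhip* level was not tested.

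Within the satellite class, the cells with a *Gli1* UMI also held more *Hhip* and *Ptch1*. This split was made after the class levels had been seen. It set 35, 30 and 47 *Gli1*+ satellite cells, with median UMIs of 8433, 8511.5 and 6438, against 414, 404 and 624 *Gli1*- ones, with 6703, 7647 and 5523. *Hhip* stood at 296, 241 and 314 CPM in the *Gli1*+ cells and 51.5, 31.0 and 49.0 CPM in the *Gli1*- cells. The sets were far apart in every library. The difference was 2.69 (SE 0.22, edgeR adjusted p = 0.00357) over 10499 genes, of which 2 passed, a share of 0.019%. *Csrp2* was the other one, at 1.79. At 5000 UMIs a cell, a *Hhip* UMI was found in 37.0%, 17.9% and 36.4% of *Gli1*+ cells and 9.19%, 6.57% and 9.65% of *Gli1*- cells. The *Hhip* call did not pass without library 1 (adjusted p = 0.642) or without library 3 (adjusted p = 0.0828), where 2 sums a side remain.

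*Ptch1* stood at 189, 168 and 176 CPM in *Gli1*+ satellite cells and 92.5, 89.5 and 84.2 CPM in *Gli1*- ones. Every *Gli1*+ value lay above every *Gli1*- value. The difference was 0.99 (SE 0.17) and did not pass without the block (edgeR adjusted p = 0.417). It passed with the library as a block at 1.00 (edgeR adjusted p = 0.000621), where 0.467% of genes passed. The fibroblast panel was at 1183, 2815 and 581 CPM in *Gli1*+ and 1996, 2420 and 360 CPM in *Gli1*- satellite cells, lower in library 1 and higher in the other two. The mural panel was at 310, 285 and 512 CPM against 196, 129 and 344 CPM, higher in every library, and its part in the difference was not tested.

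**Figure D4:**
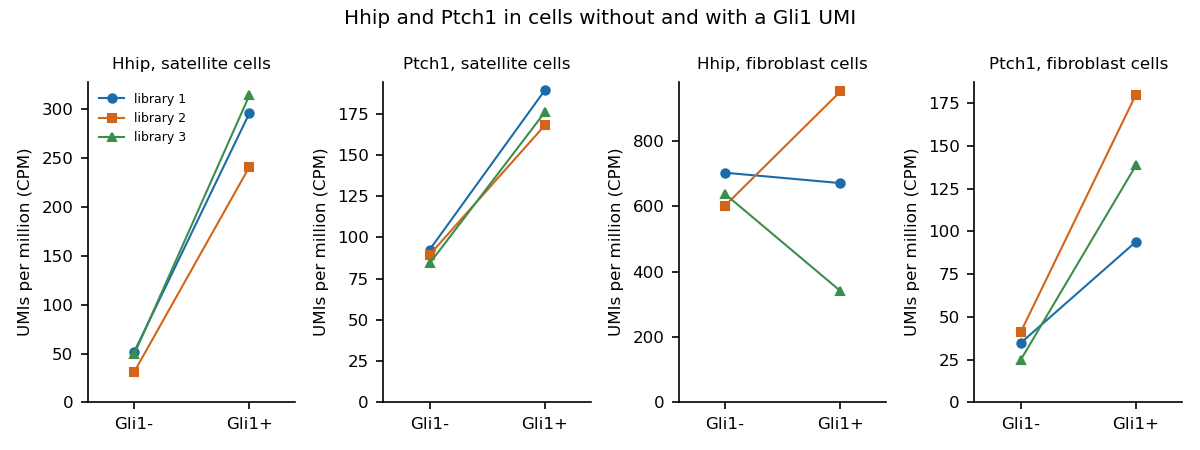
*Hhip* and *Ptch1* in CPM in cells without and with a *Gli1* UMI, one line per library, for satellite cells and fibroblasts. *Hhip* is higher with *Gli1* along every satellite line and along 1 of 3 fibroblast lines, and *Ptch1* along all lines.

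Fibroblasts were split in the same way, into 75, 13 and 52 *Gli1*+ and 1986, 381 and 1508 *Gli1*- cells. The question was whether the target genes are found in the same cells. *Ptch1* stood at 93.9, 180 and 139 CPM in *Gli1*+ fibroblasts and 34.7, 41.0 and 24.7 CPM in the others, without overlap. *Hhip* stood at 672, 952 and 341 CPM against 703, 603 and 638 CPM, higher in library 2 and lower in libraries 1 and 3. *Gli1*+ fibroblasts had median UMIs of 13191, 16004 and 10996, and *Gli1*- fibroblasts 10825, 11000 and 9563. Their fibroblast panel was at 21348, 15478 and 18777 CPM against 15670, 12344 and 13815 CPM, higher with *Gli1* in every library. By a gate described further on, 14, 2 and 10 of the *Gli1*+ fibroblasts were *Pi16*/*Dpp4* cells, where *Hhip* was lowest. The part of either in these differences was not tested. None of 12128 genes passed in edgeR, a share of 0%, while 578 had an unadjusted p under 0.05 and DESeq2 called 22. The *Ptch1* difference was 1.95 (SE 0.27, edgeR adjusted p = 0.278), and with the library as a block it passed at 1.99 (edgeR adjusted p = 0.00190), where 0.256% of genes passed. The *Hhip* difference was 0.00 (SE 0.32), and its sign depended on the setting. The difference between satellite cells and fibroblasts in the *Hhip* effect was 2.65 (SE 0.42, edgeR adjusted p = 0.261), with 2.71 (SE 0.37, edgeR adjusted p = 0.0222) under the block, where 0.0162% of genes passed. For *Ptch1* it was -1.01 (edgeR adjusted p = 1.00).

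Which epithelial cells hold ligand and Gli RNA was asked with gates on basal, suprabasal, secretory and ciliated genes. Basal cells with *Nkx2-1*, a transcription factor of the airway, and without the squamous gene *Tmprss11a* served as the reference, and squamous basal cells had the reverse. Here 7 members were tested over 16393 genes. *Shh* was highest in CPM in the remaining epithelial cells that met no gate, through 11 cells, *Gli1* was higher in both squamous classes than in airway basal cells, and *Gli3* and *Gli2* were lower in suprabasal, secretory and ciliated cells than in airway basal cells. In squamous basal cells 1 member was higher and 1 lower (17.3% of all genes passed), in suprabasal cells 1 and 2 (43.5%), in secretory cells 0 and 3 (12.4%), in ciliated cells 0 and 3 (66.4%), and in the remaining cells 0 and 0 (7.19%, and 20.5% with the library as a block). These counts leave out *Shh*, which had no UMI in ciliated cells and whose level in the remaining cells lay in the 11 cells described next.

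*Shh* in the remaining epithelial cells stood at 8.72, 4.06 and 7.14 CPM, and in airway basal cells at 0.584, 0.145 and 0.982 CPM. The remaining cells include 11 of the 17 cells high in *Shh*, which held 360 of the 446 UMIs of that group and all but 8, 5 and 4 of the *Shh* UMIs of the remaining cells. Without those 11 cells the remaining cells stood at 0.388, 0.275 and 0.235 CPM, below airway basal cells in libraries 1 and 3 and above them in library 2. The share of cells with a *Shh* UMI was 0.635%, 0.368% and 0.362% in all remaining cells and 0.468%, 0.279% and 1.08% in airway basal cells, higher in the remaining cells in libraries 1 and 2 and lower in library 3. Since 11 cells carry the level of the class, no test of this difference is given. Squamous basal cells had 1.37, 0.110 and 0.334 CPM, suprabasal cells 0.0634, 0 and 0.554 CPM and secretory cells 0.0617, 0 and 0.217 CPM. The high cells weighed on these levels too, since without 3 of them squamous basal cells stood at 0.237, 0.110 and 0.0697 CPM, and 1 cell held 24 of the 25 *Shh* UMIs of suprabasal cells in library 3. Ciliated cells held no *Shh* UMI in 396, 239 and 421 cells, which allows up to 0.758%, 1.26% and 0.713% of cells, and no fold is given against that group. In libraries 1 and 2 these limits are above the airway basal share, so a lower share could not be shown there.

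*Gli1* in squamous basal cells stood at 1.23, 0.548 and 0.821 CPM, in suprabasal cells at 0.444, 0.791 and 0.841 CPM, and in airway basal cells at 0.0973, 0 and 0.0819 CPM. Basal cells with neither *Nkx2-1* nor *Tmprss11a* had 0.677, 0.452 and 0.970 CPM, from 2, 1 and 5 UMIs. These values lie in the range of the squamous classes, so the higher *Gli1* is not shown to be particular to those. Basal cells with both genes had 0.100, 0 and 0.332 CPM. The airway basal cells held only 3 *Gli1* UMIs in all, and the gene passed the filter on low counts mainly through the squamous classes. As a ratio of summed counts, squamous basal cells were 11.5 times as high (95% counting interval 3.83 to 56.9) and suprabasal cells 10.4 times (3.36 to 51.8). The edgeR adjusted p was 0.00472 and 0.00342, and with no filter 0.00604 and 0.00452, but no fitted difference is given against so few counts. Without library 1 the squamous basal difference did not pass (adjusted p = 0.138), and without library 3 or with 4 markers or more per class *Gli1* did not pass the filter and was not tested.

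*Gli3* fell from 117, 123 and 113 CPM in airway basal cells to 28.4, 25.7 and 30.4 CPM in ciliated cells, a difference of -1.91 (edgeR adjusted p = 7.07e-12). It was at 47.5, 43.2 and 39.1 CPM in suprabasal cells (-1.33, edgeR adjusted p = 5.77e-09) and 59.4, 48.8 and 60.9 CPM in secretory cells (-0.92, edgeR adjusted p = 5.88e-06). Squamous basal cells had 99.8, 86.8 and 86.2 CPM, and that smaller difference of -0.35 (edgeR adjusted p = 0.0237) was lost when any 1 library was left out, with adjusted p of 0.0543, 0.252 and 0.0676. *Gli2* went the same way, from 9.24, 13.7 and 9.62 CPM in airway basal cells to 3.42, 3.25 and 2.70 CPM in suprabasal (-1.69), 3.70, 3.27 and 2.17 CPM in secretory (-1.71) and 2.42, 4.51 and 1.04 CPM in ciliated cells (-1.89), and each of these 3 passed. With 4 markers or more per class none of the 3 passed. Ciliated cells also had less *Smo*, 15.4 against 68.1 CPM in the mean (-2.01, edgeR adjusted p = 3.41e-14), and secretory cells slightly less (-0.27, edgeR adjusted p = 0.0214), which was lost without library 1 (adjusted p = 0.310) or 2 (0.149).

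*Ptch1* differed little along the epithelium. Its difference from airway basal cells was -0.43 in suprabasal (edgeR adjusted p = 0.0566), -0.31 in secretory (0.333) and 0.37 in ciliated cells (0.0868). With the library as a block all 3 passed, with edgeR adjusted p of 0.00120, 0.0303 and 0.00586, where 56.5%, 26.2% and 73.2% of all genes passed.

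**Figure D5:**
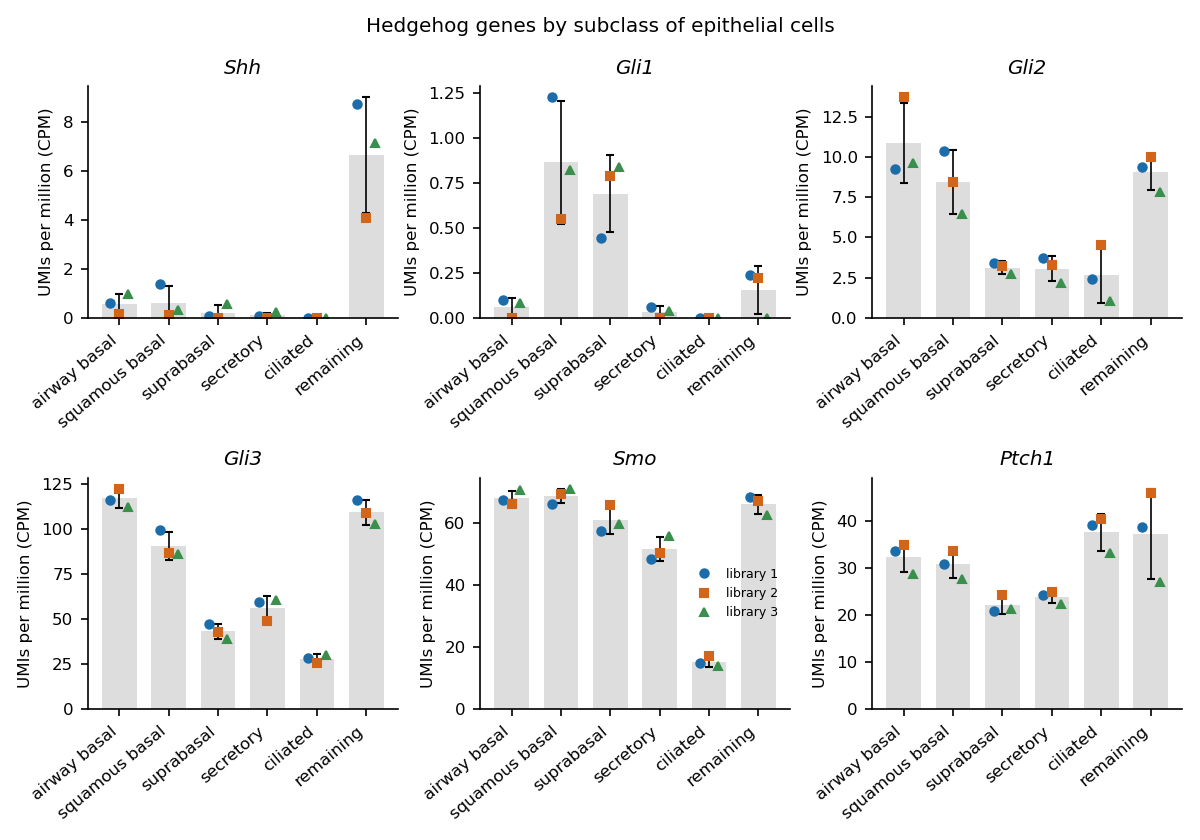
Level of *Shh*, *Gli1*, *Gli2*, *Gli3*, *Smo* and *Ptch1* in CPM in 6 epithelial subclasses, with bars for the mean, error bars for the SD and points for the 3 libraries. *Shh* is highest in the remaining cells, where 11 cells hold most of it, and *Gli3* is lower in suprabasal, secretory and ciliated cells than in airway basal cells.

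Among fibroblasts, *Hhip* was highest in cells with a UMI of *Wnt16* or *Col23a1* and lowest in cells with a UMI of *Pi16* or *Dpp4*, which mark an adventitial fibroblast found in many organs. The gate genes were picked with the place of *Hhip* among these cells known from earlier results, so the direction is not independent evidence. *Hhip* stood at 956, 768 and 790 CPM in 1375, 299 and 1184 *Wnt16*/*Col23a1* cells, 67.2, 64.5 and 40.8 CPM in 290, 37 and 110 *Pi16*/*Dpp4* cells, and 223, 148 and 115 CPM in the other 396, 58 and 266. The 3 groups did not overlap. Against the other fibroblasts the difference was 2.34 (SE 0.27, edgeR adjusted p = 0.00327) and -1.47 (SE 0.29, edgeR adjusted p = 0.0392), where 1.56% and 1.26% of 12891 genes passed. With the library as a block these shares were 6.5% and 6.23%, and both differences passed. Without library 1 these had adjusted p of 0.0523 and 0.468, and without library 2 0.0939 and 0.208. No other member passed in either comparison. *Gli1* stood at 3.79, 4.14 and 2.88 CPM in *Wnt16*/*Col23a1* cells, 4.65, 12.1 and 10.4 CPM in *Pi16*/*Dpp4* cells and 4.68, 1.72 and 5.48 CPM in the other fibroblasts. The *Pi16*/*Dpp4* values rest on 17, 6 and 12 UMIs, and the 6 of library 2 lay in 2 cells.

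The study sorted on *Lrig1*, so cells with a *Lrig1* UMI were also compared with cells without one. The split was tested over all cells, within epithelial cells and within fibroblasts, and without the library as a block no member passed in any of the 3. Each library gives a sum to both sides, and that fit leaves this pairing out. Deviations of the paired sums correlated at 0.665, 0.599 and 0.707 in libraries 1, 2 and 3 over all cells. Over all cells 0 of 19743 genes passed in that fit (0%), with 2624 at an unadjusted p under 0.05 and 870 called by DESeq2. Within epithelial cells 0 of 18202 passed (527 unadjusted, 56 in DESeq2), and within fibroblasts 0 of 13807 (206 unadjusted, 5 in DESeq2). With the library as a block 24.3% of genes passed over all cells, among them *Hhip* at -1.77 (edgeR adjusted p = 0.0132), *Gli1* at -0.95 (0.0143), *Gli2* at -0.36 (0.0226) and *Gli3* at 0.32 (0.0140). Beside these values, fibroblasts made up 10.2%, 3.11% and 4.59% of *Lrig1*+ cells and 19.3%, 8.61% and 8.39% of *Lrig1*- cells, and median UMIs were 15104, 17818 and 14695 against 7296, 9782 and 6457. Within epithelial cells and within fibroblasts no member passed with the block, where 4.48% and 0.029% of genes passed.

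Of 35 further genes of the pathway, 33 were tested between classes. In fibroblasts against epithelial cells 20 were higher and 5 lower, with a median of 1.11, where 55.2% of all genes passed. In satellite against epithelial cells 13 were higher and 5 lower, with a median of 0.49, where 51.3% of all genes passed, so the share of the list is near that of all genes. In endothelial against epithelial cells 8 were higher and 9 lower (45.1% of all genes passed), and in satellite cells against fibroblasts 4 were higher and 12 lower (37.6%). By role, in fibroblasts against epithelial cells 3 of 3 tested co-receptors were higher, as were 3 of 5 genes of ligand release, 7 of 16 genes that act inside the cell and 7 of 8 genes listed as targets, beside the 55.2% of all genes that passed in either direction.

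Of the co-receptors, which help ligand bind *Ptch1*, *Gas1* and *Cdon* were higher in fibroblasts and satellite cells than in epithelial cells, and *Boc* in fibroblasts. *Gas1* averaged 17.5 CPM in epithelial cells, 388 in fibroblasts and 1721 in satellite cells, differences of 4.47 and 6.58 from epithelial cells. *Cdon* averaged 66.1, 136 and 333 CPM in the same order (1.04 and 2.26), and *Boc* 49.3, 159 and 47.8 CPM, higher in fibroblasts (1.69) and not told apart in satellite cells (-0.09). *Lrp2* had at most 0.974 CPM in any class. *Sufu*, which holds Gli factors inactive, differed slightly at 32.0, 44.3 and 30.2 CPM (0.47 in fibroblasts, edgeR adjusted p = 0.0107). *Foxf1* and *Foxf2*, mesenchymal transcription factors listed as targets, averaged 124 and 70.0 CPM in fibroblasts and 0.193 and 0.183 in epithelial cells, and in satellite cells, where *Gli1* was highest, they averaged 0.926 and 0.468 CPM. *Foxl1* averaged 0.887 CPM in fibroblasts and was not tested. Within the epithelium *Gas1* was higher in squamous basal (2.38) and suprabasal cells (2.28) than in airway basal cells.

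The genes whose log2(CPM + 1) over the 15 class sums was most like that of 4 members were also listed, as a description over points that share libraries. For *Shh* these were *Fcgbp* (Pearson r = 0.983), *Gm29904*, *Rnf186*, *Gm34162* and *Clca1* (0.970). Outside epithelial cells these sums held 1 *Shh* UMI. The r for *Shh* thus mainly sets epithelial sums against the other classes and does not show that these genes lie in the same cells. For *Gli1* they were *Osbp2* (0.986), *Msc*, *Drp2*, *Fbxl16* and *Srpx2* (0.971), and for *Ptch1* *Mib1* (0.979), *Spry1*, *Ing5*, *Abca5* and *Pgap4* (0.961). For *Hhip* they were *Olfml1* (0.987), *S1pr3*, *Col6a1*, *Ccl19* and *Tbx4* (0.984).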

How the data were processed

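Cells sorted from pooled mouse larynges were measured with 10x Genomics 3′ libraries, and per the labels the 3 libraries are biological replicates of one condition. The authors deposited UMI counts per gene and barcode, and the submitters' processing notes name Cell Ranger 8.0.1 and mm39. The files held 18068, 10816 and 31646 barcodes with 211727921, 147898790 and 413632222 UMIs, and 307 barcode sequences occurred in more than 1 library. Barcodes passed with 500 to 8000 genes, 1000 to 40000 UMIs and a mitochondrial share no higher than 8%, which left 49393, and 4851 likely doublets were removed by a nearest-neighbour score against simulated doublets at 0.4% per 1000 barcodes.

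Counts were summed per library and class and tested with edgeR 4.0.16 (quasi-likelihood, TMM, filterByExpr, two-sided, adjusted p under 0.05) in R 4.3.3, with DESeq2 1.42.0 as an alternative. Classes needed 20 cells in every library, and splits by *Gli1* and the gate of 4 markers 10. The same library number means the same pool of animals, so the library as a block pairs the sums. Deviations of same-library sums correlated at 0.022 to 0.82. The members, lists and gates were chosen with earlier results of these data known. All 9 members were named by rule, together with co-receptors, *Sufu*, *Foxf1*, *Foxf2*, *Foxl1* and the 5 genes most alike in profile, and 1 further gene of that rule is not reported here. The secretory gate was changed after its cell counts were seen, from 2 of 6 genes at 5 UMIs to 1 of 4 genes (*Scgb1a1*, *Scgb3a2*, *Muc5b*, *Bpifb1*) at 20 UMIs, because the first one took in most epithelial cells. Other alternatives were leaving out each library, other limits on cells and genes, library totals for scaling, a gate of 4 markers with none of another panel, and thinned depth. Python 3.11.15, numpy 2.4.6, scipy 1.17.1, pandas 2.3.3 and scikit-learn 1.9.0 were used otherwise, and scripts were tested on simulated data.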

Additional observations from a re-analysis of the deposited data

Results flagged for a closer look

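The effect of a *Gli1* UMI on *Hhip* differed between satellite cells and fibroblasts by 2.71 on the log2 scale with the library as a block (edgeR adjusted p = 0.0222), and by 2.65 without it (adjusted p = 0.261). It was drawn out because a test of the difference itself passed under one of these fits. Cells outside the limits on depth and mitochondrial share, which entered no comparison except the alternative over all barcodes, held 99 *Shh* UMIs in 11137 barcodes, with 2, 3 and 94 by library. Of these barcodes 3 held 5 or more *Shh* UMIs, all from library 3.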

How the results depend on the processing

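Of 470 alternative values for 47 results, 405 kept their direction and their side of the threshold. The number of calls of members between classes, 16, stayed within 1.5 times under each alternative run, though single calls were lost (*Gli3* and endothelial *Gli2* without library 1 or with 4 markers or more per class). The fit of epithelial subclasses made 13 calls, 2 of them the *Shh* calls that the report leaves out, and these became 5 with 4 markers or more per class, 7 with the secretory gate as first written (added after the data were seen), and 8 to 12 when 1 library was left out. The 2 calls between fibroblast subclasses became 0 to 2 when 1 library was left out and 1 with 4 markers. For *Lrig1* the 0 calls became 4 with the replicate block and 2 in DESeq2. For *Gli1*+ fibroblasts 0 became 1 with the block, in DESeq2 and with no filter on low counts, and for *Gli1*+ satellite cells 1 became 2 under each of these and 0 to 1 when 1 library was left out. The block changed no other call of a member than those named. The difference in *Smo* between satellite and epithelial cells turned to -0.013 with no filter. The *Hhip* difference in *Gli1*+ fibroblasts turned to -0.11 with the block, -0.076 with no filter, -0.01 with library totals and -0.024 over all barcodes, and ran from -0.39 without library 2 to 0.28 without library 3. The cause was not tested.

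Shares depend on depth, and thinning leaves out shallower cells (310, 378 and 406 satellite cells remain at 5000 UMIs). *Shh* in epithelial cells went from 0.348% to 0.184% at 5000 UMIs, 0.0886% at 2000 and 0.223% with 4 markers, *Hhip* in fibroblasts from 56.5% to 49.2%, 38.4% and 50.6%, *Gli1* in satellite cells from 7.24% to 4.82%, 2.19% and 5.23%, and *Ptch1* in satellite cells from 38.6% to 34.9%, 16.5% and 33.5%.

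Counts over all genes moved with the block, from 2836 to 5323 in squamous basal, 2029 to 4289 in secretory, 1179 to 3353 in remaining epithelial, 201 to 838 in *Wnt16*/*Col23a1* and 163 to 803 in *Pi16*/*Dpp4* cells. For *Lrig1* they moved from 0 to 4789, 816 and 4 (all, epithelial, fibroblast), for *Gli1*+ fibroblasts from 0 to 31 and for *Gli1*+ satellite cells from 2 to 49. In DESeq2 the last 2 were 22 and 11, and the fibroblast gates gave 352 and 362. For the remaining epithelial cells the count was 248 without library 1, 671 without library 2, 279 with 4 markers and 469 with the first secretory gate. With 4 markers too few *Gli1*+ cells were left in fibroblasts and satellite cells, so that alternative was not run, and elsewhere it kept classes with at least 10 cells per library. *Gli1* did not pass the filter on low counts among epithelial subclasses with it or without library 3. Endothelial and immune classes of libraries 2 and 3 hold at most 45 cells, which limits what a 0 there can show.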

Other observations

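Satellite cells were also read by the muscle commitment genes *Myod1* and *Myog*, with no test. *Hhip* stood at 82.8, 91.7 and 66.2 CPM in satellite cells with a UMI of either gene and 70.5, 23.8 and 72.9 CPM in those without, higher in libraries 1 and 2 and lower in library 3. *Gli1* stood at 12.7, 13.2 and 14.5 CPM against 13.7, 11.7 and 15.0 CPM, with overlapping ranges, and *Ptch1* at 114, 93.4 and 82.0 CPM against 95.5, 97.0 and 97.8 CPM. *Igf1*, a growth factor on the target list, differed between *Gli1*+ and *Gli1*- satellite cells by 1.57 (SE 0.50, edgeR adjusted p = 1.00), and with the library as a block by 1.54 (SE 0.14, edgeR adjusted p = 9.05e-08). It was singled out after its values were seen, and fibroblasts, which held 712, 521 and 1467 CPM of *Igf1* against 105, 48.6 and 187 CPM in all satellite cells, are a second class in which this gene is high.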
